A study of Mus musculus with 6 samples.

Results

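The regions described here were chosen as those of the S set whose CUT&Tag read density was higher with TGF-b than in the NC library and lower again when an siRNA was added. There were 1620 such regions among the 26926 regions that the deposited comparison of NC-S with T-S shared with that of T-S with SI-S. A region was selected on its T-S density of at least 7.5, a T-S density at least 2-fold that in NC-S, and an SI-S density at most 0.5 of that in T-S. Density is reads plus 1 per kb of a 2 kb window around the region, rescaled by the authors within each table, and after that step a T-S density of 7.5 was reached with 18 reads. These values chose the regions and are given below as a description, with no test.

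The cells were primary mouse cardiac fibroblasts, and the S set held 3 libraries, 1 per treatment. NC-S carried the treatment NC, T-S carried TGF-b, and SI-S carried TGF-b together with an siRNA that the labels call SiSRF. In the study itself the siRNA of this experiment was directed at Piezo2, and the series text speaks of a Tet3 knockout by Cre virus, so the target is not stated further here. No label names the antibody. S was read as SRF and T as TAZ because the study profiled these factors, which is an inference that the tables cannot check. A matching T set of 3 libraries (NC-T, T-T and SI-T, the last labelled SiTAZ) was not used to choose the regions. The study kept its mice on C57BL/6 J, and the sex and age of the mice that gave these cells are not given in the sources used here. There were no replicates, so no treatment could be tested and every interval below covers counting error only. The T-S library enters both folds of the rule.

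SRF is a transcription factor that binds the CArG box and, with its MRTF cofactors, drives genes of the actin cytoskeleton and of smooth muscle contraction. TGF-b is the cytokine best known for turning cardiac fibroblasts into contractile myofibroblasts that deposit matrix, and its signal reaches chromatin through SMAD proteins. CUT&Tag reads mark where an antibody held a transposase on chromatin. They report association of a protein with DNA, not transcription.

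The promoters of 4 genes with a selected region within 1 kb of the start site are shown, 3 of them chosen for what the genes do and Cbr2 for a motif. They are Smad3, which encodes the main signal carrier of the TGF-b receptor, Tead3, which encodes a DNA-binding partner of YAP and TAZ, Hmx3, a homeobox gene, and Cbr2, a carbonyl reductase gene picked because its promoter holds a CArG box. Each is the 250 bases upstream of the 5′-most RefSeq start, read 5′ to 3′ on the strand of the gene, and coordinates and bases are those of RefSeq on GRCm38.p6, whereas the regions are given on GRCm39. The RefSeq windows lie at chr9:63757995-63758244 on the minus strand for Smad3, chr17:28350806-28351055 on the minus strand for Tead3, chr7:131542713-131542962 on the plus strand for Hmx3 and chr11:120732022-120732271 on the minus strand for Cbr2. Capitals mark matches on either strand to the CArG box, TGANTCA (an AP-1 site), GGAATG (a TEAD site) or GGGCGG (an SP1 site), and no matches overlapped in these windows. By the authors' distances, which match the centres of the regions, the selected regions lay 205 bp upstream of the TSS at Smad3, 143 at Tead3, 730 at Hmx3 and 293 at Cbr2. The Hmx3 region thus lies outside the bases shown. The authors' TSS need not be the RefSeq start, and those of Smad3, Tead3 and Cbr2 can reach only part of the bases shown. Which marked matches they cover was not worked out, so no match is placed in a selected region.
Smad3: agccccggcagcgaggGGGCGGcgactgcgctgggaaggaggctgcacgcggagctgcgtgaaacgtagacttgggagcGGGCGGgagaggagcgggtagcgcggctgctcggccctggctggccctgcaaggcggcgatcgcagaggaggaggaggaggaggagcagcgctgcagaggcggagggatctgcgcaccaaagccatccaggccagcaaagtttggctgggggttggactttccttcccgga
Tead3: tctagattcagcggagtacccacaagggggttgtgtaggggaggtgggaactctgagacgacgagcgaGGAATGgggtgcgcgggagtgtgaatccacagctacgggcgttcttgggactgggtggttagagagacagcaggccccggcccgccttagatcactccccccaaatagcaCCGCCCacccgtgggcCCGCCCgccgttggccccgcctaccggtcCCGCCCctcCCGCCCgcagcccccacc
Hmx3: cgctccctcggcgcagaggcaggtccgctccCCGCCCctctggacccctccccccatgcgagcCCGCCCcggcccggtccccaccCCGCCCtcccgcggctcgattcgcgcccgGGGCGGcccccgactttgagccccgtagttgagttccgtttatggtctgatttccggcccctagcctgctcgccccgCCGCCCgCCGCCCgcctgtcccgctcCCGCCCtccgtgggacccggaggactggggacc
Cbr2: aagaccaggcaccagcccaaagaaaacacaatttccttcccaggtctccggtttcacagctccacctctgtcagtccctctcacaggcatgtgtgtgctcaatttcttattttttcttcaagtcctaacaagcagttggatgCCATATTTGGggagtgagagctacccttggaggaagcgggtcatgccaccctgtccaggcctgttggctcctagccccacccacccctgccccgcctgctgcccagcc

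The CArG box for which Cbr2 was picked reads CCATATTTGG. Smad3 held 2 GGGCGG matches, Tead3 held 4 and 1 GGAATG, and Hmx3 held 7 GGGCGG. Over all 32851 RefSeq promoters of this length a CArG box stood in 1.47%, TGANTCA in 6.75%, GGAATG in 12.6% and GGGCGG in 32.7%. A match is a description of letters and not of a bound site. RefSeq promoters were matched for 162 of the 232 genes with a selected region within 1 kb of a start site (69.8%), under the 80% needed, so a count of motifs over the set is void and none is given.

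Reads at the 1620 regions were few and low in both flanking libraries. NC-S held between 0 and 535 reads per region with a median of 5 and quartiles of 3 and 6. T-S held between 18 and 1737 with a median of 22 and quartiles of 20 and 27. SI-S held between 0 and 965 with a median of 6 and quartiles of 4 and 8. Most of the selected regions therefore were small peaks in 1 library, and 1372 of them had at most 30 reads in T-S, 39 had over 50 and 5 had over 100. NC-S had 3 or fewer reads at 526 regions, SI-S at 395, and both at 186.

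The median fold of T-S over NC-S was 2.87 and the highest 17.1. The median fold of T-S over SI-S was 3.27 and the highest 28.1. SI-S held more reads than NC-S at 988 regions, the same number at 188 and fewer at 444. Nothing is read from these counts, because after the authors' rescaling the rule admits more raw reads in SI-S than in NC-S. Just inside the limits stood a region of 18 T-S reads (density 7.69), and just outside one of 17 reads (density 7.37). The fold of T-S over NC-S was 2.00026 just inside and 1.99372 just outside, and SI-S over T-S was 0.49550 just inside and 0.50029 just outside. The regions were short, with a median width of 192 bp, and 91 of them lay within 2 kb of another, so that their windows share reads.

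**Figure D1:**
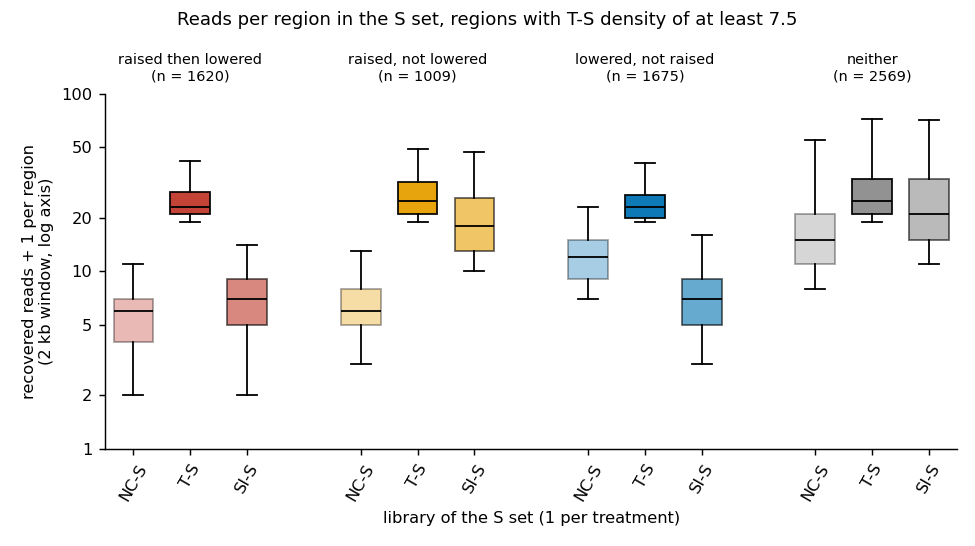
Recovered reads plus 1 per region on a log axis in the 3 S set libraries, for the 4 groups of joined regions with a T-S density of at least 7.5; boxes span the quartiles, lines are medians and whiskers reach the 5th and 95th percentiles of regions. The 1620 raised then lowered regions have medians of 5, 22 and 6 reads in NC-S, T-S and SI-S, and the 1009 regions that were raised and not lowered have 5, 24 and 17.

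Over all joined regions, without the density limit, T-S was at least 2-fold over NC-S in 33.8%, SI-S was at most 0.5 of T-S in 52.6%, and both held in 22.1%. Among the 6873 joined regions with a T-S density of at least 7.5, 2629 were raised, and of these 1620 were also lowered (61.6%, Wilson 95% interval 59.7 to 63.5%). Of the 4244 that were not raised, 1675 were lowered (39.5%, 38.0 to 40.9%). The T-S reads stand in the numerator of one fold and the denominator of the other, so these shares are not independent and nothing is read from their difference. The remaining regions fell into 1009 raised and not lowered, 1675 lowered and not raised, and 2569 that were neither.

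**Figure D2:**
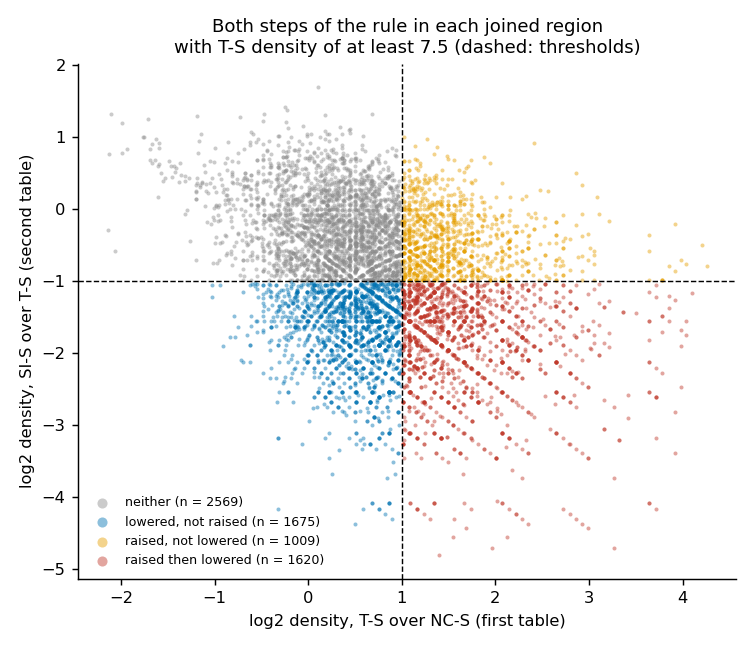
Each point is 1 of the 6873 joined regions with a T-S density of at least 7.5, with the log2 ratio of T-S over NC-S on the x axis and that of SI-S over T-S on the y axis; dashed lines are the limits of the rule. The 1620 chosen regions fill the lower right corner, and the stripes come from small whole read numbers.

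The limits act on densities that the authors had rescaled. Without that rescaling the median log2 ratio of all regions moved from -0.20 to 0.36 for T-S over NC-S and from -0.21 to -0.29 for SI-S over T-S, and 5343 regions met the rule in place of 1620. The number of regions therefore depends on the scaling, whereas the comparisons of position and of T set overlap described next kept their direction under it.

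Nearly all of the selected regions had been called as a peak in T-S alone. This held in both tables for 1576 of 1620 (97.3%, 96.4 to 98.0%). It was common among joined regions, with 86.8% of all of them and 92.4% of those with a T-S density under 7.5. Among dense regions it held for 60.3% of the regions raised and not lowered, 92.5% of those lowered and not raised and 43.8% of those that were neither. T-S is the only library in both comparisons, so the join by itself favours T-S peaks. Before the join, T-S alone was called at 24737 of 52723 regions beside NC-S and at 23841 of 52579 beside SI-S. Of the other selected regions, 26 were called in T-S alone in the first table and in both T-S and SI-S in the second. A further 6 were called in both NC-S and T-S in the first table and in T-S alone in the second, and 10 in both libraries of both tables. The last 2 were called in NC-S in the first table and in SI-S in the second, although T-S had the most reads. They were the promoter of Ankrd28, which encodes a regulatory subunit of protein phosphatase 6 (chr14:31552598-31552721, 6, 23 and 8 reads in NC-S, T-S and SI-S), and chr16:91331481-91331583 with no assigned gene, with 16, 66 and 24 reads.

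Promoters were a small share of the selected regions, close to their share of all joined regions and under that of other dense ones. By the authors' annotation 702 had no assigned gene (43.3%, 40.9 to 45.8%) and 570 lay in introns (35.2%, 32.9 to 37.5%), of which 351 were more than 10 kb from a transcription start site (TSS). Over all joined regions 47.7% (47.1 to 48.3%) had no assigned gene and 34.2% were intronic. Promoters held 150 (9.26%, 7.94 to 10.8%), exons 122 (7.53%, 6.34 to 8.92%, against 3.71% of all joined regions), 5′ UTRs 32 (1.98%), the flank downstream of genes 27 and 3′ UTRs 17. Exons held 5.24% (4.66 to 5.87%) of the other dense regions and 6.05% (4.74 to 7.69%) of those raised and not lowered, the latter with an overlapping interval. The promoter share over all joined regions was 9.88%, close to that of the selected regions, but joined regions with a T-S density under 7.5 had 5.19% and the other dense regions 27.9% (26.7 to 29.2%).

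The contrast was largest with the regions raised in T-S over NC-S and not lowered in SI-S. Of those, 40.1% were promoters (37.2 to 43.2%) and 11.4% 5′ UTRs, and 19.9% had no assigned gene. Within 1 kb of a TSS lay 240 of the 1620 regions (14.8%, 13.2 to 16.6%) and 584 of the 1009 (57.9%, 54.8 to 60.9%), against 14.0% (13.6 to 14.4%) of all joined regions. Regions lowered and not raised were the nearest group to the selected ones. They had 6.51% promoters (5.42 to 7.79%), 11.2% within 1 kb of a TSS (9.8 to 12.8%) and 51.8% without a gene (49.4 to 54.2%). Each of these intervals still lay apart from that of the selected regions. Regions that were neither had 37.1% promoters and 50.6% within 1 kb. The promoter share was thus low in both groups selected for low SI-S and high in both others. Median T-S reads differed little between the groups (22 to 24), and median NC-S reads were 5, 5, 11 and 14 in the order given in the plot of reads.

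**Figure D3:**
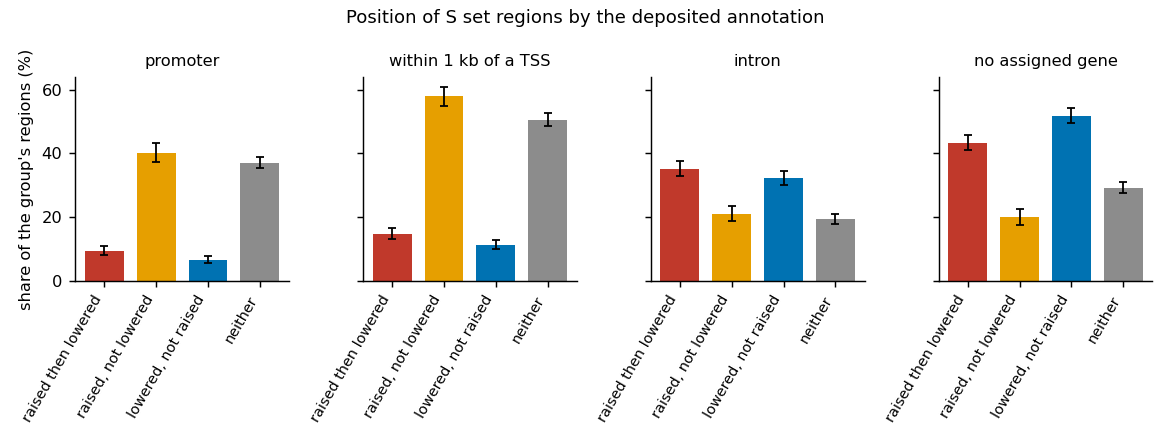
Share of each group's regions annotated as promoter, within 1 kb of a TSS, intron or no assigned gene, as bars with Wilson 95% intervals. The promoter share is 9.26% in the 1620 raised then lowered regions, 40.1% in those raised and not lowered, 6.51% in those lowered and not raised and 37.1% in those that were neither.

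The 918 regions with a gene belonged to 838 genes, and 775 of these genes had 1 region, 50 had 2, 11 had 3, 1 had 4 and 1 had 6. Chromosome 2 held 133 regions (8.21%, against 7.41% of the other dense and 7.31% of all joined regions), chromosome 11 held 131 (8.09%, against 6.28% and 5.44%) and X held 9 (0.556%, against 0.552% of the other dense regions and 2.02% of all joined regions).

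The 5 genes with the most regions were Rbfox3, Gm16347, Ulk4, Gm26644 and Cfap77. The last 3 tied with others among the 11 genes with 3 regions and were placed first by summed T-S density. Rbfox3, which encodes the neuronal splicing factor NeuN, had 6 regions, all in its introns between chr11:118402013 and chr11:118621701, of 11 joined and 9 dense regions in the gene. Their reads in NC-S, T-S and SI-S were 7, 27 and 6, then 5, 31 and 12, then 5, 41 and 12. The remaining Rbfox3 regions held 6, 34 and 11, then 12, 37 and 16, then 4, 28 and 8 reads. T-S was the highest library in all of them, as the rule requires.

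Gm16347, a predicted gene, had 4 regions that lie in introns of Csmd1, of 9 dense and 16 joined regions, and Csmd1 itself, which encodes a large membrane protein of the brain, had 3, of 6 dense and 15 joined. Ulk4, a gene for a kinase-like protein, had 3 intronic regions on chromosome 9, with 14, 76 and 19 reads at chr9:121022131-121022324, 16, 63 and 17 at chr9:121024639-121024805 and 4, 21 and 2 at chr9:120972889-120973063. Gm26644, which lies near Pax2 on chromosome 19, had 3 regions with 59, 45 and 25 T-S reads, 12, 4 and 5 NC-S reads and 16, 12 and 8 SI-S reads. Cfap77, a gene for a ciliary protein, also had 3, of which the one 97 bp upstream of its TSS had 0, 18 and 5 reads. Slc6a4, the serotonin transporter gene, was assigned 3 regions as well, with 4, 18 and 7 reads at its promoter (chr11:76908888-76909078). The others, chr11:76876907-76877066 and chr11:76877357-76877502, lay 12443 and 12000 bp upstream of the TSS, the first in an intron of a neighbouring gene, and had 3, 18 and 0 reads and 5, 20 and 0 reads. Their 2 kb windows share reads, so they count as 1 place.

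The regions with the highest T-S density were not typical of the rest. The 2 deepest, chr17:40154727-40157084 and chr17:40154331-40154572, are neighbours with no assigned gene. The first had 535 reads in NC-S, 1737 in T-S and 965 in SI-S, and the second had 322, 988 and 514. Both were called in every library, and in the T set the same places held 371, 442 and 343 reads and 232, 269 and 257 reads in NC-T, T-T and SI-T. The density ratio of T-T over NC-T at the first was 1.02. A further one without a gene, chr17:36542102-36542496, had 45, 234 and 110 reads.

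The other deep regions lay in or near genes. Flg2, a gene of the epidermal barrier, had 38, 113 and 41 reads at chr3:93112918-93113948 and 21, 75 and 26 at chr3:93118528-93118791, both in its last exon. The promoter of Tmem267, which encodes a transmembrane protein, had 33, 109 and 50 reads (chr13:119624835-119625820). Prdm12, a gene for a zinc-finger regulator of pain-sensing neurons, had 15, 76 and 25 reads in an exon of a neighbouring gene's transcript (chr2:31527889-31528104). T-S was the highest library at each, as the rule requires.

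Ranked by the smaller of the 2 folds, with libraries of 3 or fewer reads set to 3, the largest 2-way change was 5.38. It was found at chr5:112127759-112128014 with 2, 31 and 4 reads and at an exon of Gm10532 on chromosome 18 with 1, 31 and 3 reads, and also at chr5:115565429-115565603 with 1, 31 and 4 reads. The others in the first 10 had 28 to 30 T-S reads, 1 to 3 in NC-S and 1 to 3 in SI-S. Only 1 of these 10 was a promoter. It was that of Dao, which encodes D-amino acid oxidase, with 3, 28 and 1 reads at chr5:114141561-114141799. The size of these folds is limited by read number: for Dao the log2 ratio of T-S over NC-S was 2.28 with a 95% counting interval of 1.02 to 4.28.

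Within 1 kb of a TSS, T-S reads reached from 18 to 109 with a median of 25.5, NC-S reads from 0 to 33 with a median of 5 and SI-S reads from 0 to 50 with a median of 8. After Tmem267 the densest was the 5′ UTR of Cdh22, a cadherin gene (25, 77 and 31 reads, chr2:165076483-165076722). Promoters of Spryd7 (18, 66 and 32 reads, chr14:61794236-61794667) and Rad23b, a DNA repair and proteasome adaptor gene (11, 63 and 20 reads, chr4:55349595-55350006), followed. The non-coding gene Gm11535 had 16, 60 and 28 reads, Gm26644 had 12, 59 and 16, and Tdrd6, a germ cell gene, had 18, 59 and 16, each in a first exon. The promoter of Sf1, a splicing factor gene, had 10, 57 and 23 reads (chr19:6413672-6413990). The 5′ UTR of Nrg1, the neuregulin 1 gene, had 14, 55 and 22 reads (chr8:33374685-33374932), and the promoter of Pax2, a kidney and eye regulator, had 10, 55 and 9 (chr19:44745472-44745692).

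Of all 6873 dense regions 23.6% were selected, and the counts for gene lists below stand beside that share. TGF-b pathway genes had 3 of their 5 dense regions selected, all at promoters. Smad3 had 3, 24 and 8 reads in NC-S, T-S and SI-S (chr9:63665405-63665557, 205 bp upstream of the TSS). Its log2 ratio was 2.07 for T-S over NC-S (95% counting interval 0.78 to 4.06) and -1.40 for SI-S over T-S (-2.63 to -0.38). Ltbp3, which encodes a protein that holds latent TGF-b in the matrix, had 3, 21 and 8 reads (chr19:5807466-5807637), and its relative Ltbp2 had 3, 19 and 7 (chr12:84838812-84838994). The other 2 dense regions of that list were neither raised nor lowered. With 5 regions the count is a description of single places.

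SRF and MRTF target genes contributed 1 of 8 dense regions, beside 23.6% of all dense regions. It was the promoter of Tgfb1i1, which encodes the focal adhesion protein Hic-5, with 6, 26 and 8 reads (chr7:127845921-127846139). Of the other 7, 1 was raised and not lowered and 6 were neither, and the median log2 ratios over the 8 were 0.49 for T-S over NC-S and -0.40 for SI-S over T-S. Over all dense regions, the selected ones included, these medians were 0.75 and -0.99.

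Matrix genes had 1 dense region and it was selected: the promoter of Col5a1, a fibrillar collagen gene, with 4, 21 and 6 reads (chr2:27905741-27906023). Adhesion and cytoskeleton genes had 1 of 7, in an intron of the integrin gene Itga6 with 3, 22 and 1 reads. Cell cycle genes had 1 of 7, at the 5′ UTR of Ccna2, the cyclin A2 gene, with 10, 41 and 18 reads. YAP/TAZ target genes had 0 of 4 and glycolysis genes 0 of 3.

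Cell type markers were as thin. Fibroblast markers had 1 of 3 dense regions, in an intron of Wt1, an epicardial and fibroblast regulator, with 5, 22 and 7 reads, and the other 2 were raised and not lowered. Endothelial markers had 1 of 2, the promoter of Vwf, the von Willebrand factor gene, with 2, 26 and 7 reads. Macrophage markers had 1 of 1, an intron of C1qb, a complement gene, with 6, 22 and 5 reads, and cardiomyocyte markers had 0 of 1. Peaks of a bound factor do not show which cells expressed these genes, so the labelled cell type could not be checked here.

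Several genes were picked for their role after their values were seen. A region 1149 bp upstream of Piezo2, the mechanosensitive channel gene of the study, had 2, 20 and 4 reads (chr18:63187190-63187336). Its log2 ratios were 2.22 (0.79 to 4.68) for T-S over NC-S and -1.97 (-3.70 to -0.74) for SI-S over T-S, and no T set region overlapped it. The promoter of Tead3 had 4, 28 and 8 reads (chr17:28569852-28570016), and that of Cbr2 had 6, 29 and 11 (chr11:120623099-120623367). Pdgfb, a growth factor gene, had 6, 31 and 9 reads in its 5′ UTR, and Mmp9, a matrix protease gene, had 5, 21 and 8 at its promoter.

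Homeobox genes, the developmental regulators that pattern the body axis, were 16 of the 838 genes (1.91%, 1.18 to 3.08%) and 35 of the 2806 other genes with a dense region (1.25%, 0.898 to 1.73%). The intervals overlap, and the family was chosen after the genes were seen. Their regions had 21 to 82 T-S reads with a median of 38.5, against 2 to 23 in NC-S with a median of 9.5 and 2 to 31 in SI-S with a median of 10.5. Of the 16 regions 11 lay in exons or introns, 3 of them within 1 kb of a TSS, and of the other 5 regions 2 lay within 1 kb. The deepest were downstream of Tlx3 (15, 82 and 31 reads, chr11:33147865-33148178) and in Hoxb9 (23, 73 and 18, chr11:96163980-96164174).

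At the promoter of Hmx3 there were 3, 48 and 12 reads (chr7:131143750-131143982), and the log2 ratio of T-S over NC-S was 3.05 with a counting interval of 1.84 to 5.04. Hoxc9 had 11, 49 and 19 reads, Hoxd13 had 12, 43 and 13, and Hmx1, the sister gene of Hmx3, had 10, 48 and 9. T-S was again the highest library, by the rule. Others included Barhl1, Dlx5, Evx1, Lhx3, Lmx1b, Noto, Otp and Pitx1. Genes of C2H2 zinc-finger proteins made up 24 of the 838 (2.86%) and 3.46% of the other genes.

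**Figure D4:**
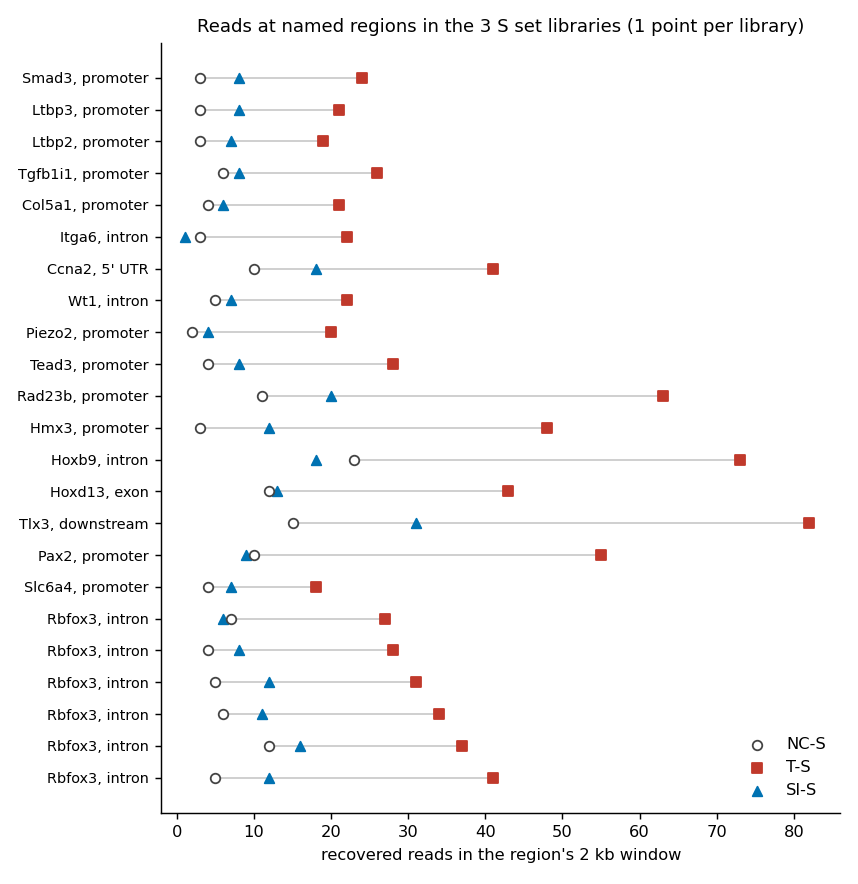
Recovered reads in the 2 kb window of named regions on the x axis, 1 point per library: open circles NC-S, squares T-S, triangles SI-S. T-S is the highest point in every line, as the rule requires, from 18 reads at Slc6a4 to 82 at Tlx3.

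By the KEGG classes deposited with the tables, 243 of the 838 genes had a pathway, as had 953 of the 2806 other genes with a dense region. Signal transduction was the most frequent class, with 74 of 243 genes (30.5%, 25 to 36.5%) against 25.3% (22.6 to 28.1%) of the others. Nervous system held 14.4% (10.5 to 19.4%) against 7.97% (6.42 to 9.87%), and endocrine system 18.9% (14.5 to 24.3%) against 12% (10.1 to 14.2%). Sensory system held 8.23% (5.39 to 12.4%) against 3.78% (2.74 to 5.19%). Intervals overlapped for signaling molecules and interaction, 11.9% (8.44 to 16.6%) against 6.82% (5.39 to 8.60%), and for transport and catabolism, 7.41% (4.74 to 11.4%) against 11.8% (9.86 to 14.0%), as they did for signal transduction. Gene length, which sets how many intronic regions a gene can hold, was not tested as a part of these differences.

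Calcium signaling held 16 of the 243 genes (6.58%, 4.09 to 10.4%) against 2.52% (1.70 to 3.72%) of the others, and serotonergic synapse 4.94% (2.85 to 8.43%) against 1.15% (0.646 to 2.05%). MAPK signaling held 7.82% (5.06 to 11.9%) against 4.41% (3.28 to 5.90%), with overlapping intervals. Vascular smooth muscle contraction held 11 (4.53%, 2.55 to 7.92%) against 1.47% (0.877 to 2.45%). These pathways share genes, so they are not separate counts, and they were picked after their shares were seen. Of the pathways not picked, morphine addiction also held 11 (4.53%, 2.55 to 7.92%), against 1.36% (0.799 to 2.32%) of the others.

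The genes behind the picked pathways were mostly channel and signal enzyme genes with intronic regions. Among voltage-gated calcium channel genes, picked by eye from these overlapping pathways, Cacna1c had 5, 20 and 5 reads in NC-S, T-S and SI-S, Cacna1d 2, 19 and 4, Cacna1a 4, 26 and 7, and Cacna1g 4, 25 and 3. Cacna1i had 2 intronic regions, with 8, 40 and 13 and with 5, 22 and 5 reads. Kcnma1, the gene of the large-conductance potassium channel that relaxes smooth muscle, also had 2, with 6, 22 and 1 and with 6, 20 and 7 reads.

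The contraction list also held genes of enzymes and of other signalling proteins. Prkcb, a protein kinase C gene, had 4, 34 and 9 reads, and Pla2g4e, a phospholipase gene, had 10, 32 and 3. Arhgef1, which encodes an activator of RhoA, had 8, 27 and 10 reads, and Ramp1, a receptor partner for the vasodilator CGRP, had 8, 28 and 5. Calcb, which encodes a form of CGRP, was the 1 gene of this list whose region was a promoter, with 3, 26 and 9 reads. Mylk4, a myosin light chain kinase gene, had 3, 18 and 5 reads, so each of these rests on about 18 to 34 reads in T-S.

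The T set gave a view of the same places in libraries that the rule had not used. Of the 1620 regions, 238 overlapped a region of either T set table (14.7%, 13.1 to 16.5%). The overlap was 574 of the 1009 raised and not lowered (56.9%, 53.8 to 59.9%), 16.4% of those lowered and not raised and 62.1% of those that were neither. The share over all joined regions is not given here, so 14.7% is not read as low for the S set. The difference from the regions raised and not lowered was present at both kinds of position. Among promoter and 5′ UTR regions the overlap was 65 of 182 (35.7%, 29.1 to 42.9%) for the selected regions and 437 of 520 (84.0%, 80.6 to 86.9%) for those raised and not lowered. Elsewhere it was 12% (10.4 to 13.8%) against 28% (24.2 to 32.2%). T-T reads at the overlaps in the first T set table had a median of 14 for the selected regions and 41 for those raised and not lowered.

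At these overlaps the T set held changes in both directions, and their balance depended on the scaling. Of the 173 regions in the first T set table, 39 were at least 2-fold higher in T-T than in NC-T (22.5%, 17.0 to 29.3%) and 38 at least 2-fold lower (22.0%, 16.4 to 28.7%), with a median log2 ratio of 0.09. Over all T set regions 17.3% were at least 2-fold higher and 42.1% at least 2-fold lower. The regions raised and not lowered in the S set had 28.2% higher and 4.61% lower, with a median of 0.54, and those lowered and not raised 16.0% higher and 20.7% lower, with a median of -0.18.

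Of the 176 selected regions in the second T set table, 36 were at least 2-fold lower in SI-T than in T-T (20.5%, 15.2 to 27.0%) and 44 at least 2-fold higher (25%, 19.2 to 31.9%), with a median of 0.04. Over all T set regions 16.2% were at least 2-fold lower and 49.7% at least 2-fold higher. The regions raised and not lowered in the S set had 25.9% lower and 5.77% higher, with a median of -0.42, and those lowered and not raised 21.7% lower and 25.8% higher, with a median of 0.11. The low T-T reads beside these shares were given above, and their part in the wide spread was not tested. With every S and T set table centred on its median, which also changed which regions were selected, 39.1% were higher and 9.94% lower in T-T than in NC-T. In SI-T over T-T, 44.8% were then lower and 11.7% higher. Centring moves every T set region, and the centred shares over all T set regions and the other groups are not given here. The centred values are therefore not read as a rise and fall particular to the selected regions.

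**Figure D5:**
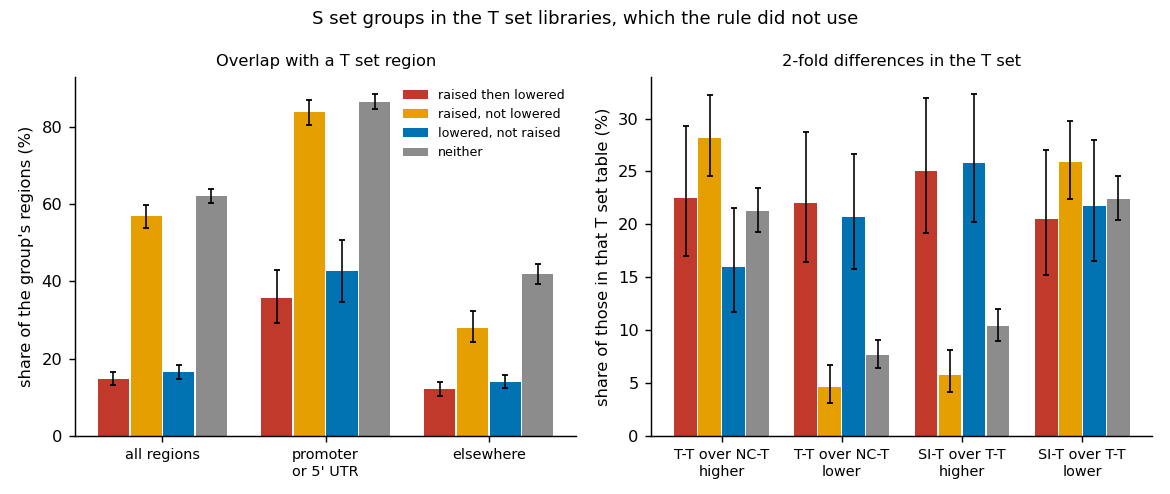
Left, share of each S set group's regions that overlap a region of either T set table, for all regions and split by position; right, share of those in each T set table with a 2-fold difference, both as bars with Wilson 95% intervals. The raised then lowered regions overlap in 14.7% and show 22.5% higher and 22.0% lower in T-T over NC-T under the authors' scaling.

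In the T set, 15 of the 111 selected regions found in both tables were also raised and then lowered (13.5%, 8.36 to 21.1%). The share was 9.84% (8.61 to 11.2%) of 2012 other dense regions. Among these it was 13.1% (8.48 to 19.8%) of those lowered and not raised and 9.90% (7.59 to 12.8%) of 505 raised and not lowered. All these intervals overlap that of the selected regions, and the share over all T set regions is not given here. The promoter of Rad23b was the deepest of the 15 regions, with 11, 63 and 20 reads in the S set and 22, 61 and 19 in the T set. Kpna4, an importin gene, had 5, 30 and 12 reads at its promoter in the S set and 7, 25 and 1 in the T set.

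Gpr45, an orphan receptor gene, had 2, 19 and 6 reads in the S set and 1, 20 and 6 in the T set. Others of the 15 were in or near Brpf3, Hacd2, Mx1, Gm9967, Gm48997, Gm57118 and Gm57255, and 4 had no gene.

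Other named regions were also covered in the T set. Smad3 held 37, 52 and 20 reads in NC-T, T-T and SI-T, and T-T over NC-T was 1.38. Reads are not compared between the sets, since total depth is not given. Window reads summed to 6452394 in T-T over 170890 regions and to 2223560 in T-S over 52723 regions, so the sums do not show depth per region. Tead3 held 25, 25 and 6, and Tgfb1i1 held 3, 26 and 23. Sf1 held 146, 136 and 104. The 2-fold rise and return of the S set was not met in the T set at any of these 4, and with 1 library each no difference between the sets was tested.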

How the data were processed

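CUT&Tag was run on 6 libraries of primary mouse cardiac fibroblasts, 1 per treatment and antibody set. Per the study's methods the authors used Bowtie2 and GRCm39 for alignment and a peak caller written Masc2, whereas the submitters' processing notes name mm10 and BWA 0.7.12. The deposited tables name a scaffold found in GRCm39 and not in GRCm38, so coordinates were taken as GRCm39. Each deposited table compares 2 libraries. Its normalized read density is a signal after a rescaling by the authors that is linear in mean log2 density, which removes any change shared by the peaks called in both libraries. The authors' fold and p-value columns were not used.

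Undoing the line gave whole reads, within 0.1, in 99.98% of S set regions. Reads in the windows summed to 1853888 for NC-S, 2223560 for T-S and 2177695 for SI-S. Windows overlap and total depth is not given in the sources used here. Regions were joined by 1 bp of overlap, taking the most overlapping one, without the mitochondrial genome. Ratios were taken within a table, because tables were normalized separately. Wilson 95% intervals of shares were computed with scipy 1.17.1 in Python 3.11.15; a log2 ratio got its interval by converting that of the later library's share of both read counts. The method was tested on simulated data. Motif matches were counted in RefSeq promoters by symbol.

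Named regions were the 10 of highest T-S density, the 10 of largest 2-way fold, the 10 of highest density within 1 kb of a TSS, up to 3 per gene list and the 5 genes with the most regions. Other named regions are said to have been picked after their values were seen, and a few items are not reported here. The regions and the 11 gene lists were chosen with earlier results of these data known. Alternatives changed the fold, the density limit, the overlap, the scaling, the floor of 3 reads and the chromosomes.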

Additional observations from a re-analysis of the deposited data

How the results depend on the processing

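With no replicates, no p-value was computed and depth limits most values, since a region of 18 reads has wide counting error. The number of regions, 1620 as reported, was 3015 at 1.5-fold, 462 at 3-fold, 144 at a T-S density of at least 15, 3988 at 5 and 5343 without the authors' line. The promoter share, 9.26%, was 14.8% by a TSS within 1 kb, 11.7% at 1.5-fold, 17.4% at a density of 15, 5.77% at 5 and 6.48% without the line. The share called in T-S alone, 97.3%, was 93.4% at 1.5-fold, 98.5% at 3-fold, 85.4% at a density of 15, 98.8% at 5 and 98.1% with each table centred on its median. The share higher in T-T over NC-T, 22.5%, was 31.5% among T set regions with a T-T density of at least 7.5, 15.8% at 3-fold, 34.6% at a T-S density of 15 and 39.1% with all tables centred. The share lower in SI-T over T-T, 20.5%, was 27.0%, 8.82%, 10.0% and 44.8% under these settings and 34.8% without the line. The cause was not tested, beyond fewer or more regions passing a limit. The other settings, 5, 6, 5, 7 and 6 of them in that order, moved the count by less than 1.5 times and the shares by less than their intervals. Added after seeing the data, the promoter share minus that of regions raised and not lowered was -30.9 percentage points and lay between -45.1 and -18.4 in all settings, and the difference in T set overlap was -42.2 points and lay between -58.0 and -26.4. A filter on the authors' p-value, planned, was not run because those columns were not used. No paired analysis was possible because each treatment had 1 library per set and no result comes from a test.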
